A study of Mus musculus with 28 samples.

Results

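Sgk1, Ddit4, Nfkbia and Zbtb16 are genes whose transcription glucocorticoid hormones are known to raise. They were followed here through every probe set of an Affymetrix U74Av2 array that the platform annotation assigns to one of the 4 symbols alone, which gave 4 of 8251 genes of the array and 6 of the 12422 probe sets that are not array controls. Sgk1 has probe set 97890_at, Ddit4 has 103460_at, Nfkbia has 101554_at and 104149_at, and Zbtb16 has 92202_g_at and 92201_at. RNA of whole brains from 28 C57BL/6J mice of both sexes, aged 6 to 9 weeks, was hybridised, 1 mouse to an array. The untreated mice were 6 wild-type mice, 5 mice heterozygous for the L250T allele of the alpha7 nicotinic acetylcholine receptor (alpha7 +/T), and 5 mice lacking the beta4 nicotinic receptor subunit (beta4 null). The mice taken 1 hour after a seizure caused by injected nicotine were 3 wild-type, 5 alpha7 +/T and 4 beta4 null mice. The nicotine dose was set for each genotype to reach a like seizure score, so dose and genotype cannot be told apart among seized mice, and no group was injected without a seizure. The alleles are present in every cell of the animal, and a whole brain mixes all its cell types, so that fewer cells of a type and less RNA per cell cannot be told apart.

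Glucocorticoids are released by the adrenal gland under stress and enter the brain, where they bind the glucocorticoid receptor Nr3c1 and the mineralocorticoid receptor Nr3c2. The bound receptor moves to the nucleus and binds short palindromic DNA elements, from which many target genes are induced within an hour or so. Sgk1 is a serine/threonine kinase of the AKT family that acts on ion channels and transporters. Ddit4 (also called REDD1) restrains the growth-promoting mTOR complex 1 through TSC1 and TSC2. Nfkbia encodes IkB alpha, which holds NF-kB in the cytoplasm and is itself an NF-kB target. Zbtb16 (also called PLZF) is a BTB zinc finger repressor that recruits histone deacetylases. Sgk1, Ddit4 and Nfkbia also respond to other signals, among them neuronal activity, hypoxia and cytokines, so a change in them is not a measure of hormone.

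Promoter windows of the members are shown first, since the hormone receptor and NF-kB act through such DNA. A RefSeq table of 300-base windows around transcription starts (build GRCm38.p6) held 6 windows for Sgk1, 1 each for Ddit4 and Nfkbia, and none for Zbtb16. The 250 bases before the start are printed 5′ to 3′ on the gene's strand, with a searched motif in capitals. The Sgk1 window is window 5 of the 6, at chr10:21993640-21993889 (plus strand), and the capitals mark a palindromic glucocorticoid response element, AGAACA and TGTTCT with 3 bases between them.
Sgk1: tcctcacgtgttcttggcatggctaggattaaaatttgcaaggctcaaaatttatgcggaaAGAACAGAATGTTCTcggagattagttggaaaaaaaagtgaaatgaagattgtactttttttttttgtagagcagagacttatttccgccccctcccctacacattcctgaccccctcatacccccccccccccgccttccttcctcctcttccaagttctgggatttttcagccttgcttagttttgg
The Nfkbia window lies at chr12:55492648-55492897 (minus strand), and the capitals mark a kB site, to which NF-kB binds.
Nfkbia: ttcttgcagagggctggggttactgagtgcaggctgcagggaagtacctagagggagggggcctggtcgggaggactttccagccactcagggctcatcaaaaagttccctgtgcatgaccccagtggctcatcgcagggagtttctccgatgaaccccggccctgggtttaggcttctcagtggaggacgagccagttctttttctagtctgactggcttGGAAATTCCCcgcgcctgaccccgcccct
The Ddit4 window lies at chr10:59951771-59952020 (minus strand), and the capitals mark a GC box, the site of SP1.
Ddit4: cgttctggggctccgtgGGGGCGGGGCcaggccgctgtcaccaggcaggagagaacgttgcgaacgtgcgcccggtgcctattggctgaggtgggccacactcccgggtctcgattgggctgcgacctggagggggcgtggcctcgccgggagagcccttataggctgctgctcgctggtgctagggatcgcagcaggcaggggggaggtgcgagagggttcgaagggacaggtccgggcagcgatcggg
The response element in the Sgk1 window begins 189 bases and ends 175 bases before that start. Searched on both strands with any 3 bases in the middle, it occurred in 3 of 32851 windows (0.00913%), those of Acnat2, Gm35041 and Sgk1. The other 5 Sgk1 windows, the Ddit4 and Nfkbia windows and the windows of 32 other listed glucocorticoid-responsive genes did not hold these letters. The capital letters of the Nfkbia window occurred, on either strand, in 29 windows (0.0883%), and in Nfkbia they lie 29 to 20 bases before the start. The GC box of the Ddit4 window, with no variant allowed, occurred in 7.01% of windows. These matches describe letters only, and more windows were searched for Sgk1 than for the other members.

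The values are MAS5 signals on a linear scale, scaled by the authors so that the trimmed mean of every array is the same. Differences are on the log2 scale, from limma fitted to all 28 arrays over the 7350 probe sets with a signal above the array's own median in at least 3 arrays, and a probe set is called at a Benjamini-Hochberg adjusted p below 0.05, two-sided. Of the 6 member probe sets 5 passed this filter, each of them above the array median in 27 or 28 arrays. The second Zbtb16 probe set, 92201_at, was above it on 0 of 28 arrays (signals 4.6 to 53.1) and was not tested. The arrays fell into 2 classes by the log2 ratio of the 3′ to the 5′ Gapdh control probe set, a measure related to RNA or target length: 9 arrays between -0.48 and 0.10 and 19 between 1.13 and 2.57. The low class held 2 untreated and 3 seized alpha7 +/T mice, 2 untreated and 2 seized beta4 null mice, and no wild-type mouse. Low-ratio arrays carried lower signals, given group, for Zbtb16 92202_g_at (log2 -0.71, adjusted p = 0.000154) and Nfkbia 104149_at (-0.79, adjusted p = 3.03e-06), while Sgk1 (-0.37), Ddit4 (-0.14) and Nfkbia 101554_at (0.17) did not pass; the class moved 52.1% of all probe sets. Age was also uneven: 4 of 5 untreated alpha7 +/T mice were 6 weeks old and all 5 seized ones 8 weeks. The titles begin with LT or B4; every alpha7 +/T mouse is LT, every beta4 null mouse B4, and the untreated wild-type mice are 3 LT mice of 6 weeks and 3 B4 mice of 7 to 9 weeks.

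**Figure D1:**
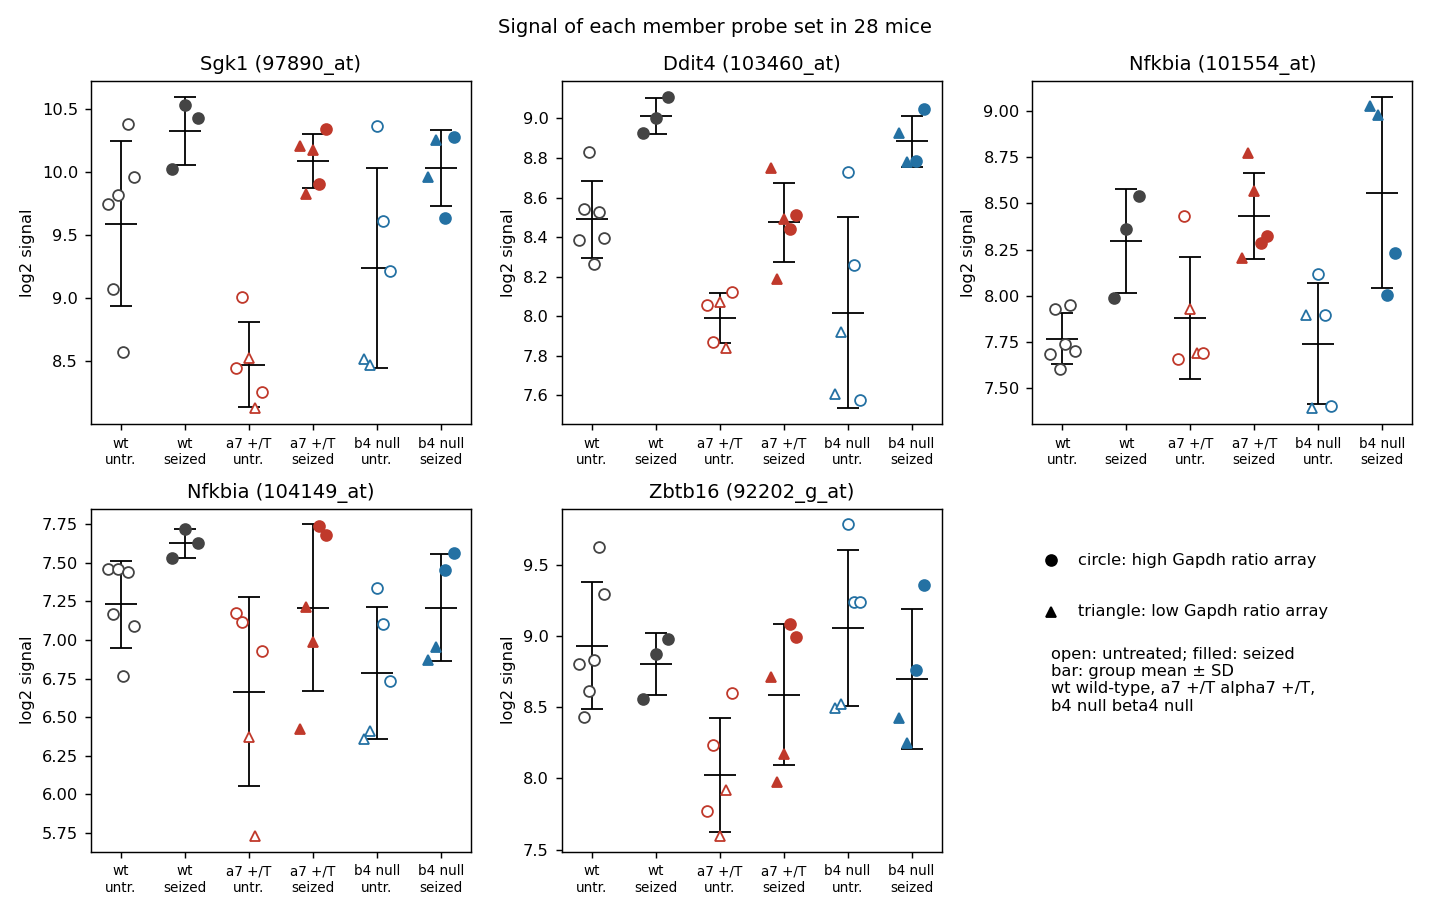
Log2 signal of the 5 tested member probe sets in each of the 28 mice (vertical axes), by group; open symbols are untreated and filled symbols seized mice, triangles are arrays of the low Gapdh ratio class, and bars are group means with SD. Every untreated alpha7 +/T mouse lies below every seized mouse of the 3 genotypes for Sgk1, a separation not counted over all probe sets. Zbtb16 shows no common direction between untreated and seized mice.

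Seizure was followed by higher Sgk1, Ddit4 and Nfkbia averaged over the 3 genotypes, while Zbtb16 did not pass. Of the 5 tested member probe sets 3 rose, where 24 of 7350 probe sets rose in all (0.327%). The members were chosen with earlier results of these data known, so this share does not test them as a set. Sgk1 rose by 1.05 ± 0.18 (log2 ± SE, 2.07-fold, limma adjusted p = 0.00231), Ddit4 by 0.62 ± 0.10 (1.54-fold, adjusted p = 0.000813) and Nfkbia 101554_at by 0.63 ± 0.12 (1.55-fold, adjusted p = 0.00551). Nfkbia 104149_at stood at 0.45 ± 0.16 (adjusted p = 0.372), and Zbtb16 at 0.03 ± 0.17 (adjusted p = 0.985), with a 95% interval from -0.32 to 0.37. All 3 calls were kept whichever single mouse was left out. None of the 3 was kept on the 19 high-ratio arrays alone (Sgk1 0.84, adjusted p = 0.182; Ddit4 0.57, 0.0841; Nfkbia 101554_at 0.40, 0.293), in the mice of 7 weeks or older, or with the LT wild-type mice only, settings that also leave fewer mice.

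Among the 5 tested member probe sets that of Sgk1 had the widest range. In untreated wild-type mice its signal ran from 381 through a median of 880.4 to 1335, and in seized wild-type mice it was 1042, 1482 and 1383. In untreated alpha7 +/T mice it was 349, 516, 369.6, 279.6 and 305, and after seizure 1180.2, 910.3, 1159, 959.9 and 1296. The alpha7 +/T groups did not overlap, and the lowest seized mouse stood well above the highest untreated one. Every seized mouse was above every untreated one for 1.63% of all probe sets in this genotype. The seized Sgk1 values were like those of the other seized genotypes. The untreated beta4 null mice read 367, 355, 1319.6, 783 and 595, and the seized ones 1000.3, 1223, 798 and 1245. Here 1 untreated mouse was higher than every seized mouse, and the 2 lowest untreated mice were the 2 on low-ratio arrays.

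Within genotypes, Sgk1 rose in alpha7 +/T mice by 1.62 ± 0.30 (3.07-fold, adjusted p = 0.00519), the single member probe set called there, against 126 of 7350 risen (1.71%). Wild-type mice stood at 0.74 ± 0.34 and beta4 null mice at 0.80 ± 0.32, neither value called (adjusted p = 1, unadjusted p = 0.0364 and 0.0184); 0.0544% and 0.0136% of all probe sets were called higher in those comparisons. The difference between the alpha7 +/T and the wild-type response was 0.88 ± 0.45 (adjusted p = 0.693), with an interval from -0.04 to 1.80, and that between alpha7 +/T and beta4 null mice was 0.82 ± 0.44 (adjusted p = 0.544). In alpha7 +/T mice the change was 1.74 within the low-ratio arrays and 1.55 within the high-ratio arrays, with no overlap in either class (exact permutation p = 0.1 in each, the smallest those numbers of mice allow). The share of all probe sets without overlap within an array class was not counted. In beta4 null mice the Sgk1 change was 1.61 within the low-ratio and 0.23 within the high-ratio arrays (exact permutation p = 0.333 and 0.7). The first compared 2 with 2 mice that did not overlap, and 0.333 is the smallest p they allow. In limma fitted to the low-ratio arrays alone it was called (adjusted p = 0.0067), where 3 probe sets rose in all. The 1 untreated alpha7 +/T mouse of 8 weeks, the age of the seized ones, read 305; in mice of 7 weeks or older the alpha7 +/T difference was 1.84 with that single control (adjusted p = 0.529).

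Ddit4 separated untreated from seized mice without overlap in each of the 3 genotypes. The untreated wild-type mice lay between 307 and 455 with a median of 353, and the seized ones at 486, 512 and 553. Untreated alpha7 +/T mice had signals of 266, 234, 269, 229 and 279, and seized ones 429.7, 292, 359.9, 347 and 365. Seized alpha7 +/T mice therefore lay within or below the upper range of untreated wild-type mice, and their mean log2 signal was 8.48 against 8.49 there. Untreated beta4 null mice had signals of 195, 242, 424, 307 and 191, and seized ones 486, 439, 441 and 529. Every seized mouse stood above every untreated mouse of its genotype, as did 2.53%, 1.63% and 0.422% of all probe sets in the wild-type, alpha7 +/T and beta4 null mice respectively. The differences were 0.52 ± 0.18, 0.48 ± 0.16 and 0.87 ± 0.17 in that order, and none was called on its own (limma adjusted p = 0.952, 0.0951 and 0.11). With array class in the fit, the alpha7 +/T value was 0.51 (limma adjusted p = 0.0303), where 573 of 7350 probe sets rose. The beta4 null value was 0.88 (limma adjusted p = 0.0199), where 4 rose in all.

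The Nfkbia probe sets did not move alike from mouse to mouse, with a Pearson r of 0.27 over the 28 mice and 0.04 over deviations from the group means. On 101554_at untreated wild-type mice ran from 195 through 211 to 247, and seized ones read 254, 329 and 373. Untreated alpha7 +/T mice read 202, 346, 244, 206 and 206, and seized ones 295, 437, 379, 312 and 321, so that 1 untreated mouse lay within the seized range. Untreated beta4 null mice read 238, 168, 278, 239 and 169, and seized ones 521, 504, 256 and 301. The 2 highest of those were the 2 on low-ratio arrays. The difference was 1.36 within the low-ratio and 0.31 within the high-ratio arrays (exact permutation p = 0.333 and 0.4). The 2 seized and 2 untreated low-ratio mice did not overlap, and 0.333 is the smallest p they allow. Per genotype the log2 differences of 101554_at were 0.53 ± 0.22 for wild-type, 0.55 ± 0.19 for alpha7 +/T and 0.82 ± 0.21 for beta4 null mice, none called (limma adjusted p = 1, 0.108 and 0.529).

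On 104149_at untreated wild-type mice ran from 109 through 159 to 176 and seized ones read 185, 211 and 198. These did not overlap, as for 2.53% of all probe sets in that direction. Untreated alpha7 +/T mice read 145, 139, 82.8, 53 and 122, and seized ones 85.8, 149, 127, 214 and 205. Untreated beta4 null mice read 82.1, 84.9, 162, 137 and 106, and seized ones 117, 124, 175 and 189. In each alpha7 +/T and beta4 null group the low-ratio arrays gave the lowest signals. With array class in the limma fit this probe set was called in the seizure average (0.53, adjusted p = 0.00341) and in alpha7 +/T mice (0.70, adjusted p = 0.00607). In that fit 573 of 7350 probe sets rose in alpha7 +/T mice.

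Zbtb16 passed in comparisons of untreated genotypes and, without array class in the fit, in no seizure comparison. On 92202_g_at untreated wild-type mice ran from 344 through 451 to 788 and seized ones read 376, 469.8 and 504. Untreated alpha7 +/T mice read 219, 301, 193, 242 and 388, and seized ones 420.1, 252, 288, 543 and 509. Untreated beta4 null mice read 359.7, 368, 881, 604 and 604, and seized ones 343, 304, 434 and 657. Untreated and seized mice overlapped in every genotype, and the differences were -0.13 ± 0.30, 0.56 ± 0.27 and -0.36 ± 0.29 in wild-type, alpha7 +/T and beta4 null mice (limma adjusted p = 1, 0.265 and 1). The alpha7 +/T value was 0.71 and called with array class in the fit (limma adjusted p = 0.0195), where 573 of 7350 probe sets rose. It was -0.01 among mice of at least 7 weeks, a set with 1 alpha7 +/T control. The alpha7 +/T response less the beta4 null response was 0.92 ± 0.40 (adjusted p = 0.406), and the F test of both interaction terms called none of the members (adjusted p from 0.681 to 0.995) and 0.0272% of all probe sets.

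Before any nicotine, Sgk1, Zbtb16 and Ddit4 were lower in alpha7 +/T than in wild-type mice, and Nfkbia was not called. Of the 5 tested member probe sets 3 were lower, where 609 of 7350 were lower in all (8.29%) and 16% were called in either direction. Because the members were chosen with earlier results known, this is no test of them as a set. Sgk1 differed by -1.12 ± 0.29 (2.17-fold lower, limma adjusted p = 0.0176), Zbtb16 92202_g_at by -0.91 ± 0.26 (1.88-fold lower, adjusted p = 0.0264) and Ddit4 by -0.50 ± 0.16 (1.41-fold lower, adjusted p = 0.034). Nfkbia 101554_at stood at 0.11 ± 0.19 (adjusted p = 0.677) and 104149_at at -0.57 ± 0.25 (adjusted p = 0.11), or -0.25 with array class in the fit and -0.16 on high-ratio arrays. With array class in the fit Ddit4 was no longer called (-0.44, limma adjusted p = 0.0653), while Sgk1 (-0.97, 0.0298) and Zbtb16 (-0.62, 0.0431) were; with age in the fit Zbtb16 was not (-0.84, 0.0505). With array weights Ddit4 was not called (-0.50, 0.0606). Every untreated alpha7 +/T mouse was below every untreated wild-type mouse for Ddit4, as for 2.33% of all probe sets; for Sgk1 and for Zbtb16 1 wild-type mouse lay within the alpha7 +/T range. The count of 3 fell to 0 when alpha7 +/T untreated mouse 3 or 4, the low-ratio mice of that group, was left out, and to 1 without wild-type untreated mouse 5, the highest for Sgk1 and Zbtb16.

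**Figure D2:**
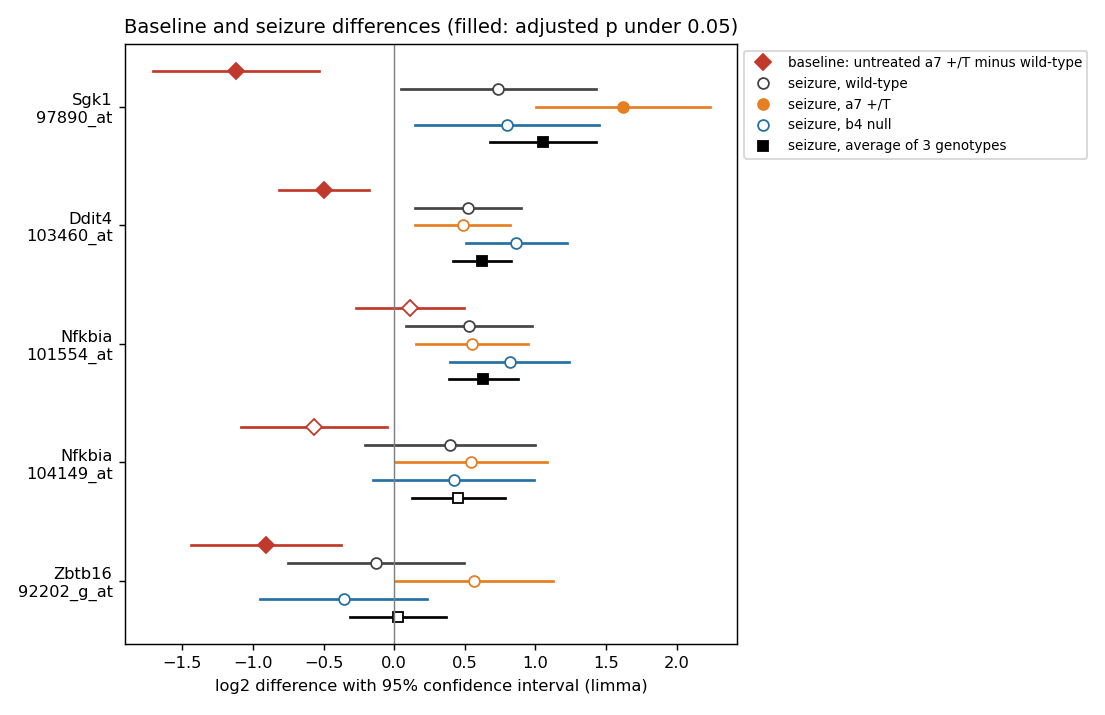
Log2 difference with its 95% confidence interval (horizontal axis) for each tested member probe set, for untreated alpha7 +/T minus wild-type mice (diamonds) and for seized minus untreated mice in each genotype (circles) and on average (squares); filled symbols have an adjusted p under 0.05. Sgk1 and Ddit4 lie below 0 at baseline and above 0 after seizure, Nfkbia 101554_at is called with seizure alone, and Zbtb16 at baseline alone.

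Set side by side, the baseline and seizure values differed among the members. Sgk1 and Ddit4 were lower at baseline in alpha7 +/T mice (-1.12 and -0.50) and rose on average with seizure (1.05 and 0.62). Nfkbia 101554_at rose with seizure (0.63) with a baseline difference of 0.11, and Zbtb16 was lower at baseline (-0.91) with a seizure average of 0.03, with genotype values of 0.56 (alpha7 +/T), -0.36 (beta4 null) and -0.13 (wild-type). Nfkbia 104149_at stood at -0.57 and 0.45, neither called. The untreated alpha7 +/T mice enter both kinds of comparison, so a low value in them lowers the baseline difference and raises the seizure difference at once. Among seized mice, which do not share those controls, alpha7 +/T less wild-type was -0.24 ± 0.35 for Sgk1, -0.54 ± 0.19 for Ddit4, 0.13 ± 0.22 and -0.42 ± 0.30 for the Nfkbia probe sets and -0.21 ± 0.31 for Zbtb16, none of them called (limma adjusted p from 0.396 to 0.781; unadjusted p = 0.00825 for Ddit4 and from 0.18 to 0.553 for the rest). Across all 7350 probe sets that comparison called 0 as well, with 882 (12%) at an unadjusted p under 0.05.

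The baseline difference was also read within mice of like age and title prefix. In 6-week LT mice, 4 alpha7 +/T against 3 wild-type, Sgk1 ran from 279.6 to 516 against 538 to 902, Ddit4 from 229 to 269 against 335 to 455, and Zbtb16 from 193 to 301 against 344 to 446. For each of the 3 the groups did not overlap, as for 12.3% of all probe sets in that direction, and the differences were -1.02, -0.63 and -0.73 (exact permutation p = 0.0571, 0.0286 and 0.0571, two-sided, with 0.0286 the smallest possible). On high-ratio arrays, 3 alpha7 +/T against 6 wild-type mice, Ddit4 again did not overlap (-0.47, exact permutation p = 0.0119; 2.68% of probe sets did not), while Sgk1 (-1.02) and Zbtb16 (-0.73) did (exact permutation p = 0.0595 in each). In the limma fit restricted to either set of mice none of the 3 was called (adjusted p from 0.0569 to 0.154). Among untreated wild-type mice the 3 LT mice of 6 weeks were all below the 3 B4 mice of 7 to 9 weeks for Zbtb16 92202_g_at. The difference was -0.64 (exact permutation p = 0.1, the smallest possible), and the other member probe sets overlapped. The share of all probe sets that separated in this way was not counted, so the separation is not given as particular to Zbtb16. Age and title prefix cannot be told apart in these mice, and their part in the Zbtb16 level was not tested.

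**Figure D3:**
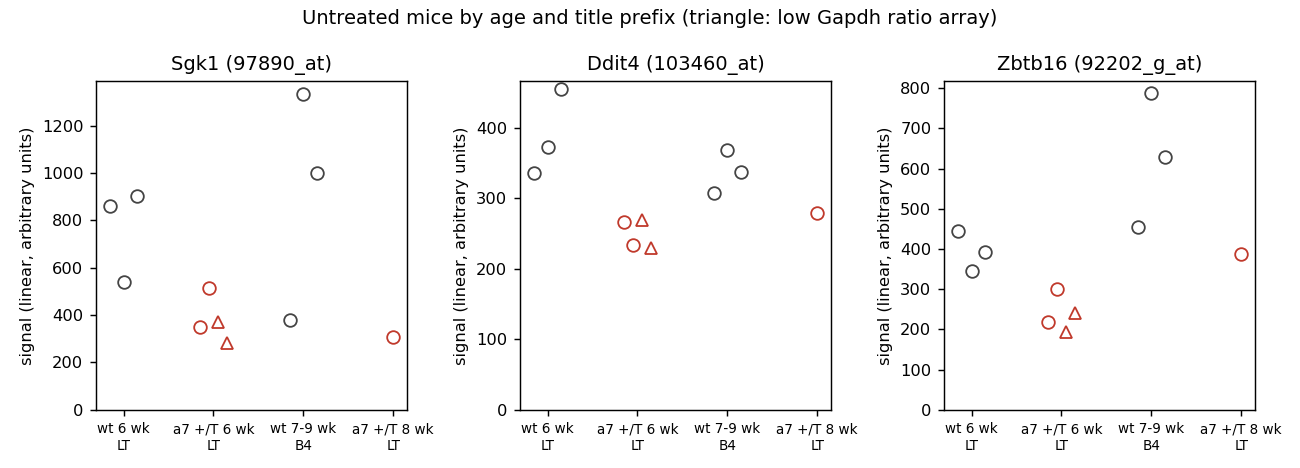
Linear signal (vertical axes, from 0) of Sgk1, Ddit4 and Zbtb16 in each untreated wild-type (grey) and alpha7 +/T (red) mouse, by age and title prefix; triangles are low-ratio arrays. Among 6-week LT mice the 4 alpha7 +/T mice lie below the 3 wild-type mice for each gene, as for 12.3% of all probe sets. For Zbtb16 the older B4 wild-type mice lie higher still, a separation not counted over all probe sets.

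Untreated beta4 null mice gave no called member against wild-type mice by limma (0.0136% of probe sets called). Ddit4 stood at -0.47 ± 0.16 (adjusted p = 0.348, unadjusted p = 0.0054, the single member under 0.05), Sgk1 at -0.35 ± 0.29, Zbtb16 at 0.12 ± 0.26 and the Nfkbia probe sets at -0.03 and -0.44. In that comparison 951 of 7350 probe sets (12.9%) had an unadjusted p under 0.05. Against the beta4 null mice, untreated alpha7 +/T mice had lower Zbtb16 (-1.03 ± 0.27, adjusted p = 0.0416; 1.62% of probe sets were lower), while Sgk1 was at -0.76 ± 0.30 (adjusted p = 0.147) and Ddit4 at -0.03 ± 0.16. On high-ratio arrays alone the beta4 null difference from wild-type mice was -0.30 for Ddit4, 0.14 for Sgk1 and 0.49 for Zbtb16 (0.41 with array class in the fit), and against B4 wild-type mice on those arrays Ddit4 stood at -0.21 (exact permutation p = 0.7). The untreated beta4 null group was itself split by array class. Its 2 low-ratio mice lay below its 3 high-ratio mice without overlap for Sgk1 (log2 -1.24), Zbtb16 (-0.91) and Nfkbia 104149_at (-0.67). The exact permutation p was 0.2, 0.1 and 0.2 in that order, with 0.1 the smallest possible. How many of all probe sets separated in this way was not counted, and array class, given group, moved 52.1% of them. The part of array class in these levels was not tested.

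In order of mean log2 signal, Sgk1 ran from untreated alpha7 +/T through untreated beta4 null and untreated wild-type to seized beta4 null, seized alpha7 +/T and seized wild-type mice. Ddit4 had the 2 untreated mutant groups lowest, then seized alpha7 +/T and untreated wild-type mice at nearly the same level, and seized beta4 null and wild-type mice highest. Zbtb16 was lowest in untreated and then seized alpha7 +/T mice and highest in untreated beta4 null mice. Ranges of neighbouring groups overlapped in 29 of 30 neighbour comparisons over the 6 probe sets; the exception was Nfkbia 104149_at in untreated and seized wild-type mice (exact permutation p = 0.0357, unadjusted). With so few mice, no single one of these exact tests could pass an adjustment over 30, so the order of neighbours is a description, and their differences are neither shown nor excluded.

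Over the 28 mice the probe set most like Sgk1 was that of Errfi1, an inhibitor of EGF receptor signalling (Pearson r = 0.87, and 0.82 on the 19 high-ratio arrays), followed by Ddit4 (0.78), Wdr92, Smad1 and Ptcd3. Over deviations from the group means Errfi1 was again first for Sgk1 (0.74), then Ell2 and Taf1c. Ddit4 was most like Sgk1, Errfi1 (0.77), the early gene Egr1 (0.76), Rasd1, which encodes a dexamethasone-induced Ras protein (0.74), and Klf4, and over deviations most like Abcb4, Zdhhc6 and Trp53bp1. Nfkbia 101554_at was most like the early genes Junb and Fosb (0.71 each), Errfi1, Dusp6 and Ptgs2, and over deviations most like Sbno1, Gstm5 and Sema7a. Zbtb16 stood nearest Kmt2e (0.87), Ssbp2, the clock repressor Nr1d1 (0.86), Kdm3a and 4833420G17Rik, and over deviations nearest Nr1d1 (0.88), Mt3 and Nedd4. These correlations describe mice that share groups, array classes and scaling, and the sources used here do not give the time of day of sampling.

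Other genes known to respond to glucocorticoids were looked at as a list, also chosen with earlier results of these data known. Of 36 listed genes 31 were on the array and 23 passed the filter; with seizure 2 rose on average and 0 fell (8 had an unadjusted p under 0.05, as did 8.64% of all probe sets; 0.327% of all rose), and the median was 0.25 against 0.01 over all probe sets. Those 2 were Per1, a clock gene (0.90 ± 0.19, limma adjusted p = 0.029), and Errfi1 (0.78 ± 0.12, adjusted p = 0.000615). Dusp1, a MAP kinase phosphatase, stood at 0.71 (adjusted p = 0.133) and the transcription factor Cebpb at 0.55 (adjusted p = 0.111). Fkbp5, a receptor co-chaperone often used as a marker of hormone action, stood at -0.03 (adjusted p = 0.973), an average over 0.50 in alpha7 +/T (unadjusted p = 0.0258), -0.46 in beta4 null (0.0499) and -0.14 in wild-type mice, and Klf9 at 0.25 (adjusted p = 0.17). Tsc22d3 did not pass the filter.

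In alpha7 +/T mice the list's median was 0.50 with seizure, against 0.01 over all probe sets, with 21 of 23 genes above 0. The 2 called were Per1 (1.43 ± 0.32, limma adjusted p = 0.0146) and Errfi1 (0.81 ± 0.20, adjusted p = 0.0242), where 1.71% of all probe sets rose. An unadjusted p under 0.05 was found for 9 of the 23, against 18.4% of all probe sets. At baseline in the same genotype the median was -0.32 against 0.06 over all probe sets, with 7 of 23 above 0 and 2 called lower, a share near the 8.29% of all probe sets: Klf9 (-0.36 ± 0.11, adjusted p = 0.032) and the small GTPase Rhob (-0.58 ± 0.19, adjusted p = 0.0373). Fkbp5 was at -0.32 (adjusted p = 0.251) and Per1 at -0.65 (adjusted p = 0.128) there, and Mt2, a metallothionein, at -0.56 (adjusted p = 0.064). At that baseline 7 of the 23 had an unadjusted p under 0.05, against 35.1% of all probe sets. The seizure and baseline comparisons of this genotype share the untreated alpha7 +/T mice. In beta4 null mice the list's seizure median was -0.02 with 11 of 23 above 0, and in wild-type mice 0.26 with 19 of 23 above 0; limma called 0 genes in either, with 5 at an unadjusted p under 0.05 in wild-type mice (4.24% of all probe sets) and 3 in the beta4 null ones (1.74%).

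**Figure D4:**
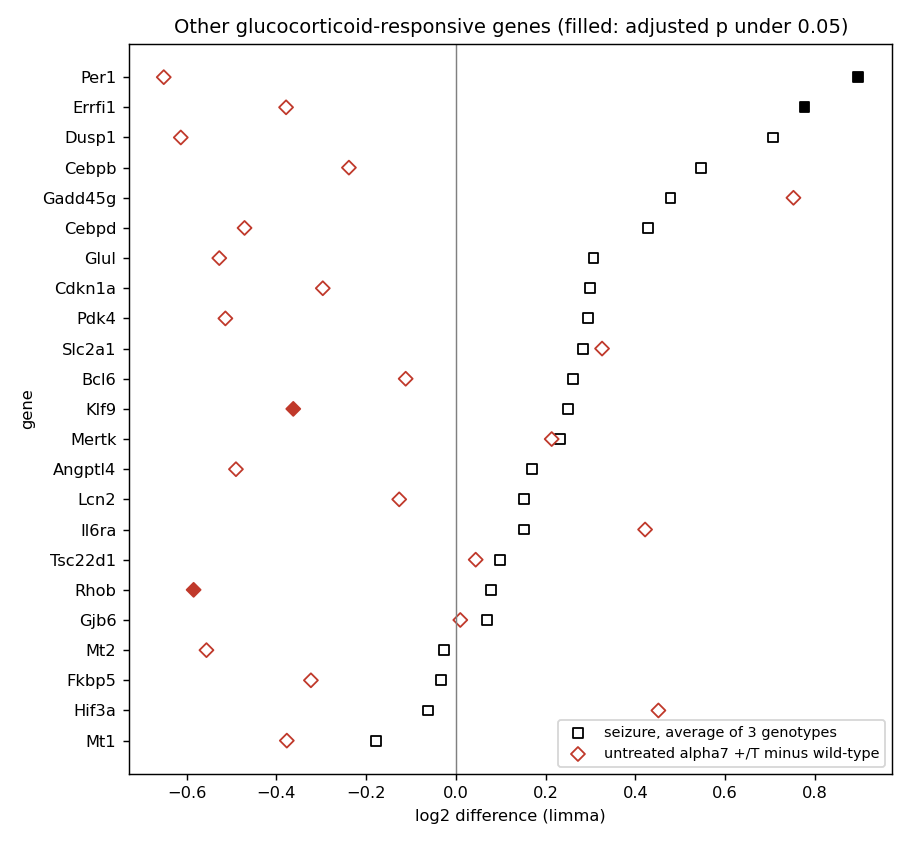
Log2 difference (horizontal axis) of the 23 other glucocorticoid-responsive genes that passed the filter (vertical axis), for the seizure average (squares) and for untreated alpha7 +/T minus wild-type mice (diamonds); filled symbols have an adjusted p under 0.05. Per1 and Errfi1 are called with seizure, and Klf9 and Rhob at baseline.

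The genes that carry or limit the hormone signal showed no called seizure change (0 of 11 that passed the filter by limma, 2 at an unadjusted p under 0.05; Avp, vasopressin, -0.80, adjusted p = 0.237; Fkbp4 -0.29; Pomc 0.52). Over all probe sets 0.408% were called in the seizure average and 8.64% had an unadjusted p under 0.05. A count of 0 called in a list this short is near that share. The receptor Nr3c1 had a wide error (0.43 ± 0.80, limma adjusted p = 0.936), and Nr3c2 was not analysed here. The baseline calls in alpha7 +/T mice here and in the partner lists stand against 8.29% of all probe sets called lower and 7.73% called higher, so single calls in short lists are given as values only. At baseline these mice had lower Hsd11b1, the enzyme that regenerates active glucocorticoid (-0.69 ± 0.23, adjusted p = 0.0397), and higher Hspa8, a chaperone (0.42, adjusted p = 0.0374), and Crhr1, a receptor of corticotropin-releasing hormone (0.71 ± 0.14, adjusted p = 0.0075).

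Partners of each member in the lists were not called by limma in the seizure average. Over all probe sets 0.408% were called there and 8.64% had an unadjusted p under 0.05. Counts of 0 called in lists this short are near that share. Of the SGK1 pathway 0 of 11 moved (0 at an unadjusted p under 0.05; Wnk1 0.19, Ndrg2 0.17, Atp1b1 0.11); at baseline in alpha7 +/T mice Foxo3 (-0.48) and the ubiquitin ligase Nedd4 (-0.51) were lower and Akt2 (0.77) higher (limma adjusted p from 0.036 to 0.0391). Around Ddit4, 0 of 10 mTOR genes moved with seizure (1 at an unadjusted p under 0.05); Txnip, a thioredoxin inhibitor, stood at 0.59 (adjusted p = 0.151), and at baseline it was lower (-0.89 ± 0.25, adjusted p = 0.0252) while Ywhaz, a 14-3-3 protein, was higher (0.41, adjusted p = 0.0444). Of NF-kB subunits, inhibitors, kinases and targets 0 of 8 moved with seizure (0 at an unadjusted p under 0.05; Rela -0.05, Vcam1 0.04, Traf2 0.12), with 15 more on the array under the filter, and at baseline Btrc, which marks IkB for degradation, was higher (0.99 ± 0.23, adjusted p = 0.0124). Of BTB zinc finger proteins and deacetylase partners 0 of 12 moved with seizure (1 at an unadjusted p under 0.05; Bcl6 0.26, Zbtb17 -0.45), and at baseline Cul3 (-0.69, adjusted p = 0.0188) and Hdac2 (-0.81, adjusted p = 0.0364) were lower. Of 14 hypoxia and stress response genes 0 moved in the seizure average (1 at an unadjusted p under 0.05; Bnip3 0.28, Ldha 0.21, Asns 0.14); at baseline Atf4 (0.79, adjusted p = 0.0025) and P4ha1 (0.86) were higher and Hif1a (-0.55) lower (adjusted p = 0.0361 and 0.0301).

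The immediate early genes mark neuronal activity, and 9 of 14 rose in the seizure average, where 0.327% of all probe sets rose. They were led by Fos (1.99 ± 0.22), Nr4a1 (1.49) and Fosb (1.20), in a list chosen with earlier results of these data known. At baseline 1 of the 14 was called lower in alpha7 +/T than wild-type mice, Fos (-1.05 ± 0.35, limma adjusted p = 0.0402), which was the lowest of the list; 6 of 14 were above 0, the values reached 0.94, and the median was -0.16. Summed signals of cell type markers in untreated mice ran from 2109 to 2937 for the 5 of 7 listed astrocyte markers that were measured in alpha7 +/T mice against 2903 to 3523 in wild-type mice, while 3 of the 5 were above 0 (median 0.03) and 1, the gap junction gene Gja1, was called lower (-0.58, adjusted p = 0.02). In the same comparison 4 of 5 oligodendrocyte markers (median 0.48, 1 called higher), 5 of 6 microglial markers (0.43, 1 called higher) and 4 of 6 neuronal markers (0.58, 0 called) were above 0. Summed neuronal signals went the other way, with a median of 7800 in alpha7 +/T against 8232 in wild-type mice. Median sums were higher for oligodendrocytes (7708.5 against 6462.6) and microglia (1443 against 1099). Of all probe sets 8.29% were called lower and 7.73% higher at this baseline, so single calls in these lists are given as values only. The part of these marker differences in the members' baseline was not tested. The sum of 7 endothelial and pericyte markers ran from 798 to 1057 in seized against 1111 to 1785 in untreated alpha7 +/T mice, from 888 to 944 against 1001 to 1517 in wild-type mice, and from 903 to 1206 against 879 to 1212 in beta4 null mice. Its members went both ways in alpha7 +/T mice: Cldn5 (-1.26) and Eng (-0.90) fell, and Rgs5 rose (1.43). Their limma adjusted p ran from 0.0162 to 0.0236, where 1.09% of all probe sets were called lower and 1.71% higher. No such share was computed for summed signals. The part of these vascular markers in the members' seizure differences was not tested. The pituitary hormones Gh, Prl and Pomc summed to 10790.1 in alpha7 +/T seized mouse 2 and to at most 411 in every other mouse; without that mouse Sgk1 rose by 1.68 in alpha7 +/T mice (adjusted p = 0.00765).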

How the data were processed

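Total RNA of each brain was hybridised to 1 U74Av2 array, per the labels' protocols. The deposited values are linear signal intensities of MAS5, per the submitters' processing notes; tested on the file, the mean after trimming 2% at each end is 150.1 on every array. Array medians were 43.6 to 61.1, and Spearman correlations within groups 0.907 to 0.972. Of 12488 probe sets 66 are controls; 10833 have 1 gene symbol, 396 several and 1193 none in the annotation, which can be old. Log2 intensities were fitted in R 4.3.3 with limma 3.58.1 (6 group means, eBayes with trend), tested on simulated data; 7350 probe sets were kept. The number of mice limits the precision, and replicates are separate mice numbered in accession order. Small comparisons used exact two-sided permutation tests. Listed genes were represented by their brightest probe set. Named genes are all members, Per1, Fkbp5, Tsc22d3, Errfi1, Klf9, Nr3c1, Nr3c2 and Fos, listed genes that were called, up to 3 per list by p, and those most like each member; Rasd1 and others named for likeness carry no test. Alternatives changed the scale, filter, covariates, array weights and the mice included. The members and lists were chosen with earlier results of these data known. Promoter windows come from RefSeq (GRCm38.p6); the array files give no coordinates. The sources used here give neither scan dates nor nicotine amounts.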

Additional observations from a re-analysis of the deposited data

Results flagged for a closer look

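Of 30 group and probe set combinations with 4 to 6 mice, 2 had a mouse far from the others, both on the dim Zbtb16 probe set 92201_at, and chance flags about 1 in 20. In the untreated beta4 null group mouse 3 read 32.5, with the nearest mouse at 12.9. In the seized beta4 null group mouse 3 read 9.94, with the nearest at 7.97. Both lie below the median of their arrays, and Zbtb16 92202_g_at, the probe set described in the text, had no such mouse.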

How the results depend on the processing

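The 3 member probe sets risen in the seizure average became 0 in mice of 7 weeks or older, on high-ratio arrays alone and with LT wild-type mice only, where 10, 12 and 8 probe sets rose in all. In alpha7 +/T mice the 1 risen became 4 with array class as a covariate (573 risen in all), 2 with class and age (63 in all), and 0 in the older mice (8) or on high-ratio arrays (9), and it ran from 1 to 2 with 1 mouse left out, with 2 without beta4 null untreated mouse 3. In beta4 null mice the 0 risen became 2 with array weights (12 in all) and 1 with array class, with class and age, or on low-ratio arrays (3 or 4 in all), and it ran from 0 to 1, with 1 without beta4 null untreated mouse 3. The 3 lower in untreated alpha7 +/T mice became 0 with title prefix as a covariate, in the older mice, in 6-week LT mice, on high-ratio arrays and with LT wild-type mice, and 1 with class and age (231 lower in all) or with B4 wild-type mice (178); where the count was 0, 2 to 46 were lower in all. Ddit4 was also lost with array class (adjusted p = 0.0653) and array weights (0.0606), and Zbtb16 with age (0.0505). The count ran from 0 to 3 with 1 mouse left out. Seized mutants against wild-type went from 0 to 3 with array weights, where 1007 probe sets were called in the alpha7 +/T and 1999 in the beta4 null comparison. The counts of 0 in wild-type seizure, untreated beta4 null and interaction comparisons stayed at 0. Sgk1, Ddit4 and Nfkbia 101554_at kept their direction in the seizure average, as did Sgk1, Ddit4 and Zbtb16 at the alpha7 +/T baseline, in every setting run.

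Reversals were of differences that were not called. Sgk1 in untreated beta4 null mice was 0.14 on high-ratio arrays. The Ddit4 alpha7 +/T interaction was 0.0047 with age, 0.039 with class and age and 0.14 with LT wild-type mice, and ran from -0.11 to 0.033 with 1 mouse left out. Nfkbia 101554_at at the alpha7 +/T baseline was -0.13 after median centring and -0.11 in older mice (-0.026 to 0.17 with 1 mouse left out). In untreated beta4 null mice it was 0.015 with array weights, 0.0011 with age, 0.040 on high-ratio arrays and 0.0025 with LT wild-type mice (-0.12 to 0.061), and its interaction was -0.013 with array class, -0.15 on high-ratio arrays and -0.10 with B4 wild-type mice (-0.13 to 0.16). The Nfkbia 104149_at interaction was -0.099 with array weights, -0.25 in older mice and -0.031 with B4 wild-type mice (-0.085 to 0.35). The Zbtb16 seizure average was -0.14 with array weights, -0.048 with age, -0.0054 with title prefix, -0.32 in older mice and -0.039 with B4 wild-type mice (-0.048 to 0.086). Zbtb16 was -0.014 in the alpha7 +/T seizure comparison in older mice, and -0.23 to 0.0084 in the wild-type one with 1 mouse left out. In untreated beta4 null mice it was -0.0082 after median centring, -0.15 with title prefix, -0.053 in older mice and -0.19 with B4 wild-type mice (-0.059 to 0.26). The causes of these changes were not tested, and the restricted sets also leave fewer mice. No paired analysis was possible because the replicate numbers are accession order and the labels tie no mice together. Signal near background limits Zbtb16 92201_at.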
